A study of Hordeum vulgare with 10 samples.

Results

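Leucine-rich repeat (LRR) receptor kinases of barley roots were followed at the transcript level upon treatment with ergosterol or with lipids of the fungus *S. indica*. Transcripts were selected by words: the description had to contain 'kinase' together with 'leucine-rich' or 'LRR', and the mean abundance over the 10 libraries had to reach 1 TPM, the unit in which each transcript is given as its share of a library. Of 238 transcripts with such a description, 66 reached this level and form the family described here, each from a different locus, among 18330 transcripts of 37962 that reached it in all. Identifiers are given without the prefix HORVU.MOREX.r3. that they share, and their first characters name the chromosome, so that 3HG0318390.1 lies on 3H. The abundance limit used the same libraries as the comparisons, but averaged over all treatments, and the levels themselves are therefore a description.

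All libraries came from 1 genotype, wild-type barley cv Golden Promise, and from roots of 7-d-old seedlings cut into pieces of 5 mm, with 24 pieces per well and 2 wells combined per replicate. Pieces were treated for 2 h with ergosterol, the main sterol of fungal membranes, at 250 nM (3 libraries), with lipids extracted from *S. indica*, a beneficial endophyte of roots, diluted 1 : 160 (4 libraries), or with the solvent control (3 libraries). Every treatment contained methanol at 1 : 40, so the solvent control is not an untreated root. Because pieces of several seedlings were mixed and no source states that replicates came from separate plants, *p* values measure the spread between these libraries, which may be technical. Read totals are not kept in TPM, and the depth behind each value is unknown. Transcripts described with root words (Casparian strip, root cap, root hair, nicotianamine, high-affinity nitrate transporter) summed to between 694 and 1008 TPM per library, and those with words for green tissue to between 3.22 and 8.63 TPM, of which the highest value was in solvent control library 2. Both ends of the root range were solvent control libraries, library 2 at 694 TPM and library 1 at 1008 TPM.

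LRR receptor kinases are membrane proteins with a leucine-rich repeat domain outside the cell, a single pass through the plasma membrane and a kinase domain inside. Many bind peptides or microbial molecules, pair with a smaller co-receptor of the same family and pass the signal on by phosphorylation, while others control growth, organ shape and vascular development. In plants, transcripts of many receptors of this kind accumulate when immune responses are triggered. The descriptions in the barley annotation, however, seldom name a particular receptor.

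Only a minority of the annotated family was abundant enough to be tested. The share of matching transcripts that reached 1 TPM was 27.7%, against 48.3% of all transcripts, and 66 of the matching transcripts were listed at 0 in all 10 libraries. The 172 transcripts below the limit include 13 that reached 1 TPM in at least 1 library, and 6 whose mean reached it in at least 1 treatment. Just inside the limit were 2HG0180010.1 (1.03 TPM), 4HG0332060.1 (1.07 TPM) and 2HG0191130.1 (1.12 TPM), and just outside it were 5HG0486610.1 (0.999 TPM), 1HG0069720.1 (0.944 TPM) and 3HG0235630.1 (0.909 TPM). By chromosome, 9 of 30 matching transcripts reached the limit on 1H, 14 of 31 on 2H, 7 of 40 on 3H, 4 of 20 on 4H, 11 of 38 on 5H, 9 of 44 on 6H and 12 of 35 on 7H.

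Most of the 66 receptor kinases were present in every treatment. The mean reached 1 TPM in all 3 treatments for 62 of them, and 61 were above 0 in all 10 libraries. Levels were low: 23 members averaged under 2 TPM, 21 averaged 2 to under 10 TPM, 18 averaged 10 to under 100 TPM and 4 averaged 100 TPM or more. The median of the members' means was 3.6 TPM, against 10.4 TPM over all transcripts tested. Their replicates also spread more, with a median residual standard deviation of 0.242 log2 units against 0.192 for all transcripts tested. This comparison was not matched for abundance, so it does not set the family apart from other transcripts of its level.

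**Figure D1:**
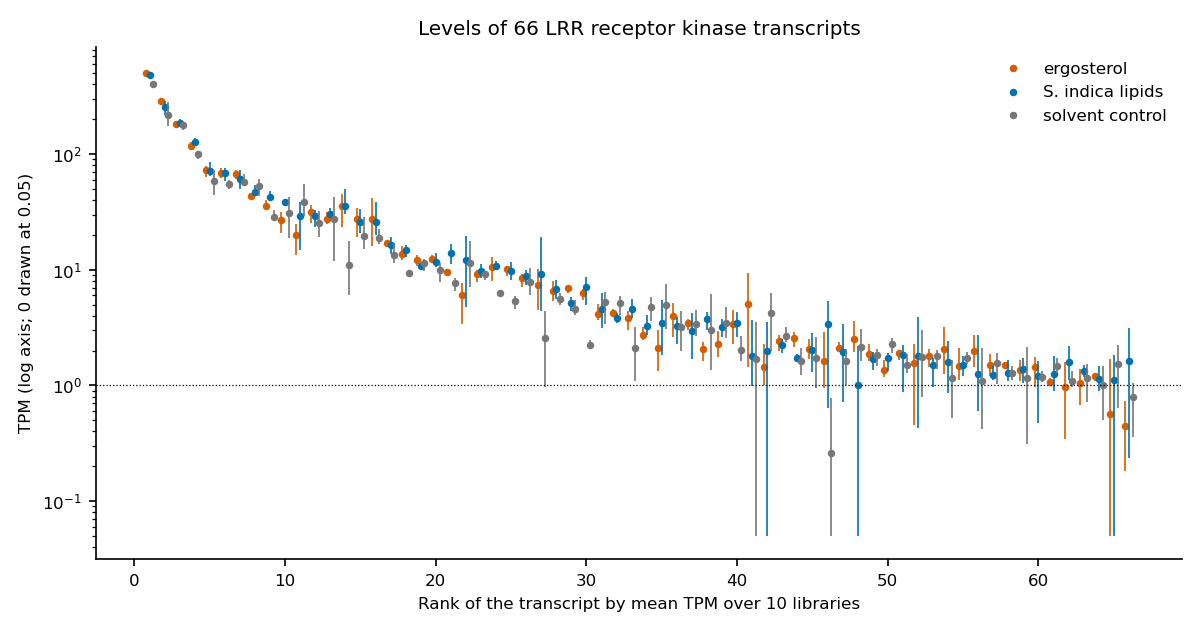
Levels of the 66 LRR receptor kinase transcripts, ordered by rank of mean TPM (x axis), on a log10 axis in TPM (y axis). Points are treatment means, vertical lines run from the lowest to the highest library (ergosterol n = 3, *S. indica* lipids n = 4, solvent control n = 3), values under 0.05 TPM are drawn at 0.05, and the dotted line marks 1 TPM. A few transcripts dominate, 4 of them at 100 TPM or more, and the lines grow long among the rarest members, several of which were listed at 0 in some libraries.

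The family's RNA was concentrated in a few members. Summed over all 66 transcripts, LRR receptor kinases took 1856, 1690 and 1822 TPM of the ergosterol libraries and 1774, 1833, 1672 and 1847 TPM of the *S. indica* lipid libraries, against 1318, 1688 and 1526 TPM of the solvent control libraries. The treated libraries were mostly higher, but *S. indica* lipid library 3 lay below solvent control library 2. The 5 most abundant members held between 61.8% and 66.3% of this sum in every library. A sum in bulk tissue cannot tell more RNA per cell from more cells of a type that expresses these receptors.

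The most abundant member was 7HG0728380.1, which averaged 467 TPM and ranked 259 among all transcripts tested. It had 530, 465 and 516 TPM upon ergosterol treatment and 489, 493, 449 and 512 TPM upon *S. indica* lipid treatment, against 385, 431 and 400 TPM in the solvent control. All treated libraries lay above all solvent control libraries, yet the transcript passed in neither comparison (log2FC 0.31, SE 0.0885, limma adjusted *p* = 0.0894 for ergosterol, and log2FC 0.26, SE 0.0828, adjusted *p* = 0.136 for *S. indica* lipids). Here and throughout, log2FC is the difference of mean log2(TPM + 1), treated minus solvent control, and adjusted *p* comes from limma with Benjamini-Hochberg adjustment over all 18330 transcripts.

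The other 4 abundant members also did not pass. 2HG0197800.1 had 284, 282 and 296 TPM upon ergosterol and 250, 260, 216 and 286 TPM upon *S. indica* lipids, against 174, 280 and 201 TPM in the solvent control, so that solvent control library 2 lay among the treated libraries of the lipid group. 3HG0295830.1 was the flattest of the 5, with 193, 168 and 186 TPM upon ergosterol and 199, 194, 172 and 175 TPM upon *S. indica* lipids, against 162, 190 and 181 TPM in the solvent control. The 95% intervals of its log2FC, from −0.18 to 0.25 for ergosterol and from −0.14 to 0.26 for *S. indica* lipids, leave room for only small differences. 6HG0553820.1 had 109, 126 and 118 TPM upon ergosterol and 117, 138, 132 and 126 TPM upon *S. indica* lipids, against 89.9, 105 and 105 TPM in the solvent control, again with all treated libraries higher (log2FC 0.24, adjusted *p* = 0.217, and 0.36, adjusted *p* = 0.0614). 3HG0314320.1 averaged 67.6 TPM and overlapped between treatments and solvent control, with a log2FC of 0.34 upon ergosterol and 0.31 upon *S. indica* lipids.

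Which members changed upon ergosterol was the first comparison. The limits of the study, an adjusted *p* no higher than 0.05 with a log2FC no smaller than 1 in size, were passed by 2 of 66 LRR receptor kinases that rose, or 3.03%, against 1.16% of all transcripts tested. None fell, against 0.0709% of all transcripts tested, while at an unadjusted *p* under 0.05 the limma fit had 15 members higher (7.87% of all transcripts tested) and 4 lower (11.8%). With the adjusted *p* alone, 4 members rose (2.85% of all transcripts tested) and 0 fell (0.458%). The log2FC was above 0 in 43 members, or 65.2%, against 36.9% of all transcripts tested, and its median was 0.18 against −0.08.

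Upon treatment with *S. indica* lipids the same 2 members rose past both limits, against 1.17% of all transcripts tested. None fell (0.0927% of all transcripts tested), and an unadjusted *p* under 0.05 was reached in the limma fit by 14 members that were higher (8.56% of all transcripts tested) and 2 that were lower (6.75%). With the adjusted *p* alone, 7 members rose, or 10.6%, against 3.29% of all transcripts tested, and 0 fell (0.584%). The log2FC was above 0 in 44 members, or 66.7%, against 41.2% of all transcripts tested, with a median of 0.15 against −0.04. Both comparisons share the 3 solvent control libraries, so their counts and their overlap are not independent of each other.

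**Figure D2:**
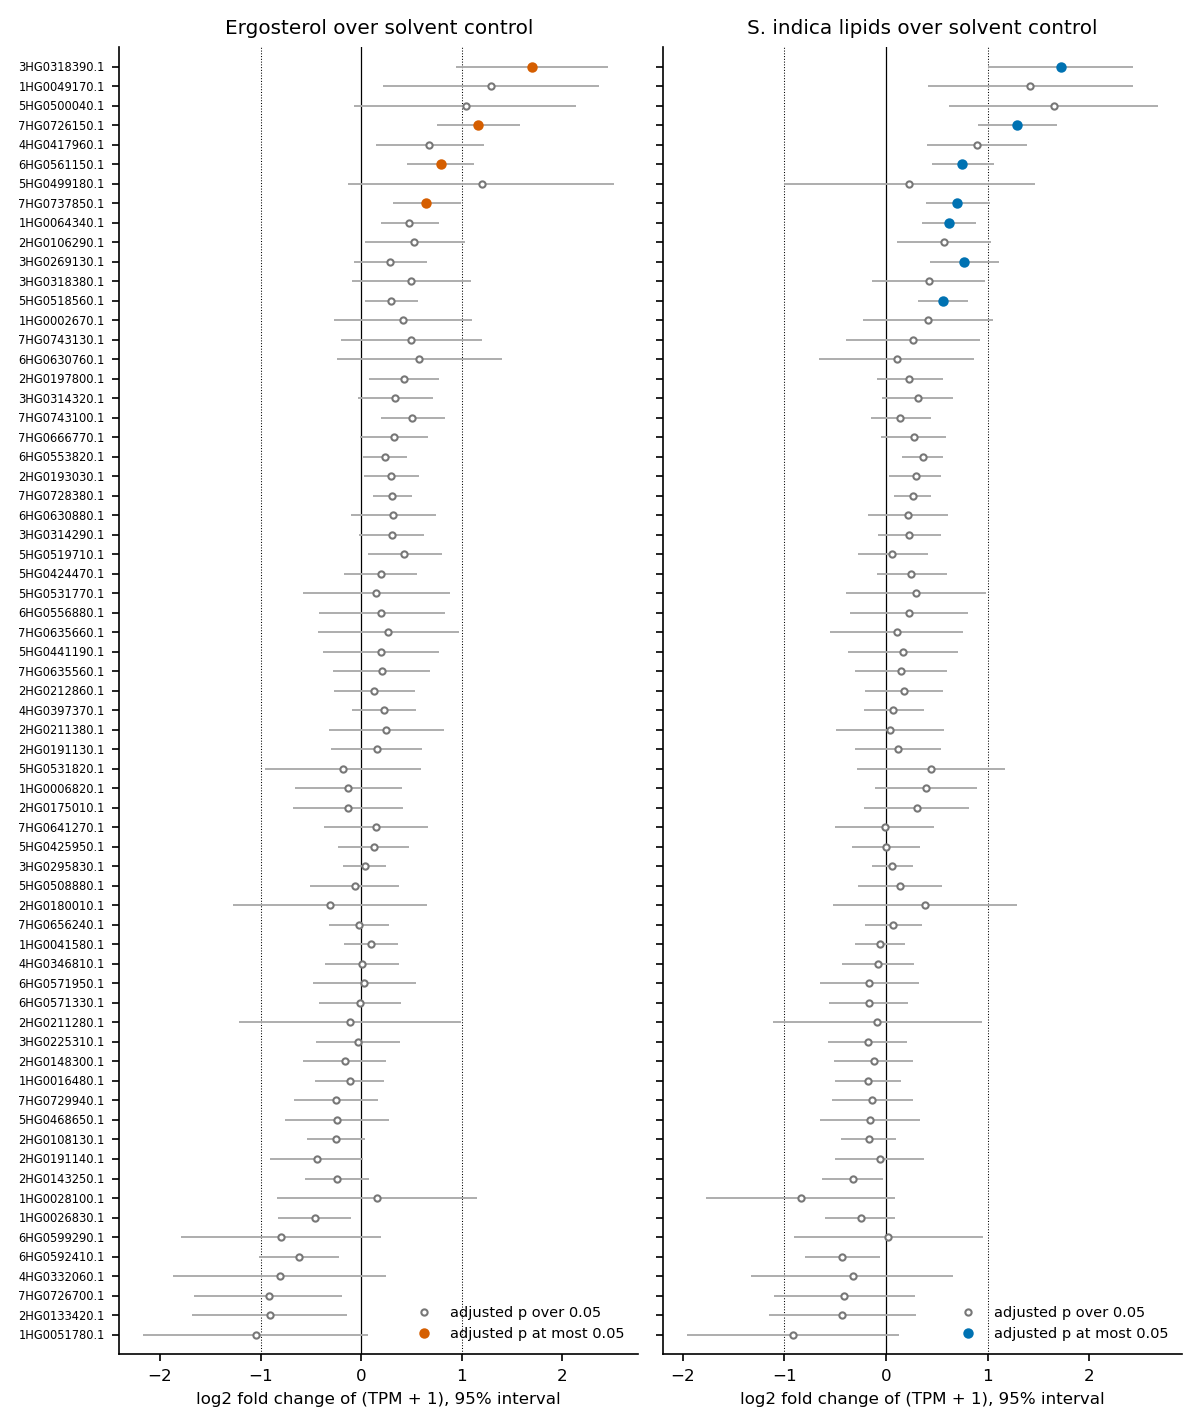
Log2FC of all 66 LRR receptor kinases upon ergosterol (left panel) and *S. indica* lipids (right panel) over the solvent control (x axis, log2 scale of TPM + 1), ordered from top to bottom by their average over both comparisons. Lines are 95% intervals, filled points have a limma adjusted *p* of at most 0.05, open points do not, and dotted lines mark −1 and 1. Filled points number 4 in the ergosterol panel and 7 in the *S. indica* lipid panel, all to the right of 0.

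Members at 10 TPM or more had the higher median log2FC in both comparisons, a difference that was not tested and that depends on the scale, since adding 1 to each TPM shrinks the log2FC of rare members more than that of abundant ones. Among these 22 receptor kinases the log2FC was above 0 in 18 upon ergosterol and in 19 upon *S. indica* lipids, with medians of 0.30 and 0.28, where all transcripts tested at this level had medians of −0.06 and −0.03. Among the 44 members under 10 TPM it was above 0 in 25 in each comparison, with medians of 0.13 and 0.09 against −0.11 and −0.06 for all transcripts at this level. The rarer members had wider 95% intervals, reaching a median of 0.49 log2 units to either side for ergosterol, against 0.35 for the members at 10 TPM or more.

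The largest rise was that of 3HG0318390.1, described as an LRR receptor-like kinase. It had 45.1, 23.4 and 39 TPM upon ergosterol and 31.3, 31.9, 30.2 and 50 TPM upon *S. indica* lipids, against 8.87, 17.8 and 6.09 TPM in the solvent control. All treated libraries were higher than all solvent control libraries, although the 3 solvent control libraries themselves differed widely. Mean abundance was 35.8 ± 11.2 TPM upon ergosterol (SD, n = 3) and 35.8 ± 9.46 TPM upon *S. indica* lipids (SD, n = 4), against 10.9 ± 6.14 TPM in the solvent control (SD, n = 3). The log2FC was 1.70 for ergosterol (SE 0.345, 95% interval 0.94 to 2.46, limma adjusted *p* = 0.0229) and 1.72 for *S. indica* lipids (SE 0.323, 95% interval 1.00 to 2.43, limma adjusted *p* = 0.0125), which placed it at rank 51 and at rank 46 of all transcripts tested. The call was lost when certain libraries were left out. For ergosterol the limma adjusted *p* was 0.106 without ergosterol library 1, 0.095 without ergosterol library 3, 0.0786 without solvent control library 1 and 0.0907 without solvent control library 3. For *S. indica* lipids it was 0.0613 without solvent control library 1 and 0.0556 without solvent control library 3. Over all fits with 1 library left out, the log2FC lay between 1.38 and 2.09 for ergosterol and between 1.40 and 2.11 for *S. indica* lipids.

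7HG0726150.1, an LRR receptor-like protein kinase of lower abundance, rose more evenly. It had 5.45, 6.54 and 6.79 TPM upon ergosterol and 8.39, 4.91, 6.16 and 8.73 TPM upon *S. indica* lipids, against 2.13, 2.46 and 2.11 TPM in the solvent control. The lowest treated library had about double the TPM of the highest solvent control library. Mean abundance was 6.26 ± 0.712 TPM upon ergosterol (SD, n = 3) and 7.05 ± 1.82 TPM upon *S. indica* lipids (SD, n = 4), against 2.23 ± 0.194 TPM in the solvent control (SD, n = 3). The log2FC was 1.16 for ergosterol (SE 0.189, 95% interval 0.75 to 1.58, limma adjusted *p* = 0.00677) and 1.29 for *S. indica* lipids (SE 0.177, 95% interval 0.90 to 1.68, limma adjusted *p* = 0.00217). In both comparisons it passed both limits in each of the 10 fits that left out 1 library, with a highest adjusted *p* over these and the other fits of 0.0381 for ergosterol and 0.0239 for *S. indica* lipids.

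Another 5 members, which were named after their values had been seen, rose by less than the limit on the log2FC. Of these, 6HG0561150.1 had 10.6, 8.75 and 10.8 TPM upon ergosterol and 10.2, 9.22, 8.16 and 11.6 TPM upon *S. indica* lipids, against 4.56, 5.91 and 5.7 TPM in the solvent control. Treated and solvent control libraries were clearly apart, with a log2FC of 0.79 (SE 0.149, limma adjusted *p* = 0.0158) for ergosterol and 0.75 (SE 0.14, limma adjusted *p* = 0.0118) for *S. indica* lipids. The adjusted *p* for ergosterol was 0.0779 without ergosterol library 1, 0.0789 without ergosterol library 3 and 0.0567 without solvent control library 1, and that for *S. indica* lipids was 0.0556 without solvent control library 1.

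7HG0737850.1 showed a similar pattern, with 13, 8.04 and 10.7 TPM upon ergosterol and 11.1, 10.3, 10 and 11.9 TPM upon *S. indica* lipids, against 6.61, 6.2 and 6 TPM in the solvent control. Its solvent control libraries were close to each other, and ergosterol library 2 came nearest to them. The log2FC was 0.65 (SE 0.152, limma adjusted *p* = 0.0453) for ergosterol and 0.70 (SE 0.142, limma adjusted *p* = 0.019) for *S. indica* lipids. The ergosterol result was fragile: it passed in 2 of 10 fits that left out 1 library, those without ergosterol library 2 and without *S. indica* lipid library 4, and elsewhere the adjusted *p* lay between 0.0578 and 0.162. For *S. indica* lipids the adjusted *p* was 0.0553 without *S. indica* lipid library 4, and 0.0541, 0.0549 and 0.0848 without solvent control libraries 1, 2 and 3.

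The remaining 3 passed upon *S. indica* lipids, and upon ergosterol their adjusted *p* was over 0.05. 1HG0064340.1 had 15.9, 12.2 and 12.5 TPM upon ergosterol and 14.4, 16.4, 12.8 and 16 TPM upon *S. indica* lipids, against 9.6, 9.66 and 8.78 TPM in the solvent control. Again no treated library overlapped the solvent control, and the log2FC was 0.48 (SE 0.129, limma adjusted *p* = 0.075) for ergosterol and 0.62 (SE 0.121, limma adjusted *p* = 0.0159) for *S. indica* lipids. Without *S. indica* lipid library 2 or without solvent control libraries 1 or 3 the adjusted *p* for *S. indica* lipids was 0.052, 0.0511 and 0.0808.

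3HG0269130.1, an LRR protein kinase, was the member in which the treatments were furthest apart among those that rose. It had 10.2, 9.31 and 9.09 TPM upon ergosterol and 11.7, 15.9, 16.7 and 11.1 TPM upon *S. indica* lipids, against 6.49, 8.51 and 7.88 TPM in the solvent control. All *S. indica* lipid libraries lay above all ergosterol libraries, and these lay above all solvent control libraries. The log2FC was 0.29 (SE 0.165, limma adjusted *p* = 0.355) for ergosterol and 0.77 (SE 0.154, limma adjusted *p* = 0.0179) for *S. indica* lipids. The call for *S. indica* lipids was lost without *S. indica* lipid library 2 (adjusted *p* = 0.0541), without solvent control library 1 (0.082) and without solvent control library 3 (0.0599).

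5HG0518560.1, also described as an LRR protein kinase, had 33.2, 33.1 and 40.4 TPM upon ergosterol and 38.9, 43.5, 47.5 and 40.7 TPM upon *S. indica* lipids, against 26.5, 26.8 and 32.8 TPM in the solvent control. The lowest ergosterol libraries were just above the highest solvent control library. The log2FC was 0.30 (SE 0.121, limma adjusted *p* = 0.204) for ergosterol and 0.56 (SE 0.113, limma adjusted *p* = 0.0188) for *S. indica* lipids. It was lost without *S. indica* lipid library 2 (adjusted *p* = 0.0563) and without solvent control libraries 1 or 2 (0.0846 and 0.0681).

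**Figure D3:**
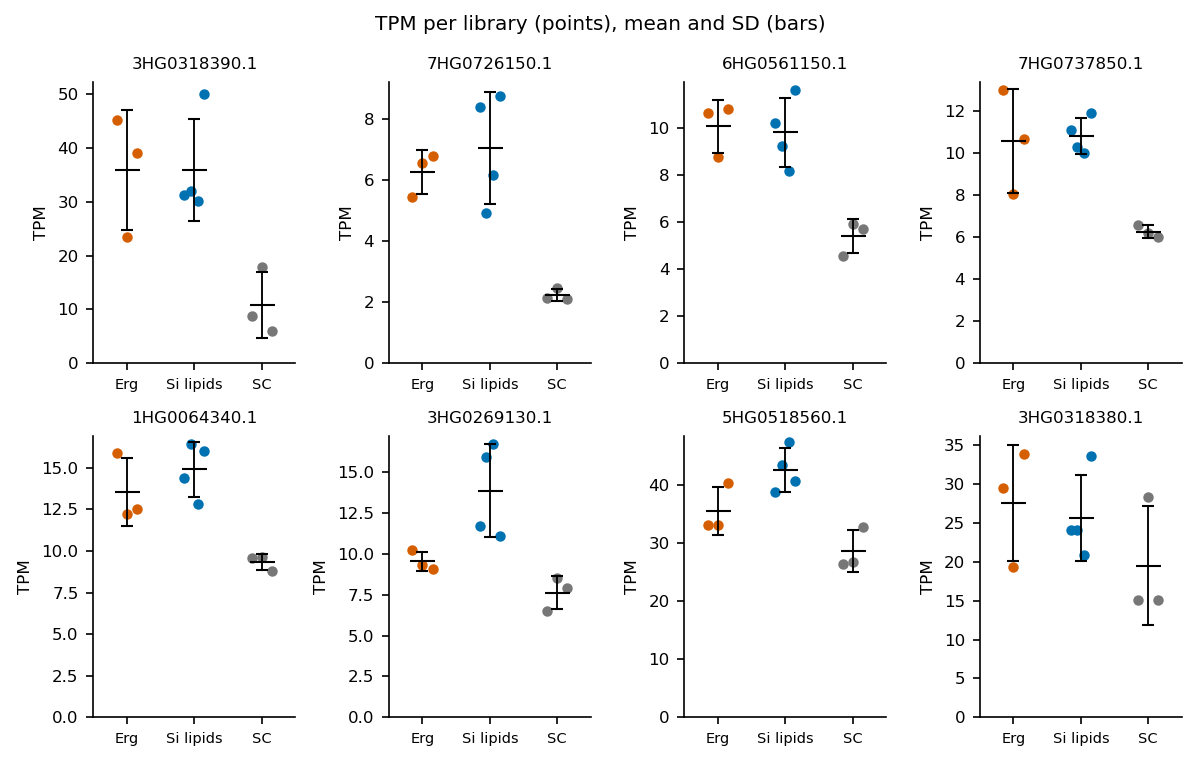
TPM (y axis, from 0) in each library of the 7 LRR receptor kinases with an adjusted *p* of at most 0.05 in either comparison, and of 3HG0318380.1, the neighbour of 3HG0318390.1, with ergosterol (Erg), *S. indica* lipids (Si lipids) and solvent control (SC) from left to right. Points are libraries, and bars give the mean and SD (n = 3, 4 and 3). In the first 7 panels every treated library is above every solvent control library, whereas in the last panel solvent control library 2, at 28.3 TPM, lies among the treated libraries.

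Counted over the whole family, every treated library was above every solvent control library in 9 members, the 7 that rose with the adjusted *p* alone and the abundant 7HG0728380.1 and 6HG0553820.1. This was the case in 5.41% of all transcripts tested. The reverse, every treated library below every solvent control library, was seen in 0 members and in 4.26% of all transcripts tested. For ergosterol alone, 16 members were higher without overlap (9.09% of all transcripts tested) and 5 were lower (17.0%), and for *S. indica* lipids alone 10 were higher (6.85%) and 0 were lower (6.40%).

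Some members had a large log2FC but varied too much between libraries to pass, and 3 of these were named after their values had been seen. 1HG0049170.1 had 4.5, 10.1 and 7.54 TPM upon ergosterol and 4.39, 7.48, 19 and 5.54 TPM upon *S. indica* lipids, against 4.41, 0.962 and 2.35 TPM in the solvent control. Its *S. indica* lipid library 1 overlapped the solvent control, and the log2FC of 1.29 and 1.42 had adjusted *p* of 0.183 and 0.145. 5HG0500040.1 had 2.91, 0.946 and 1.01 TPM upon ergosterol and 2.18, 5.25, 5.4 and 0.633 TPM upon *S. indica* lipids, and was listed at 0, 0.777 and 0 TPM in the solvent control, with adjusted *p* of 0.28 for ergosterol and 0.0926 for *S. indica* lipids. With a solvent control mean of 0.259 TPM, 5HG0500040.1 reached the abundance limit only through the treated libraries, so its rise is partly a result of the selection. 5HG0499180.1 was at 4.37, 1.44 and 9.34 TPM upon ergosterol and at 1.12, 1.45, 3.67 and 0.987 TPM upon *S. indica* lipids, against 0 (as listed), 3.54 and 1.48 TPM in the solvent control. Its groups overlapped throughout, with adjusted *p* of 0.296 and 0.888.

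No LRR receptor kinase passed the test in the direction of lower abundance. The lowest average log2FC was that of 1HG0051780.1, with 0.997, 1.03 and 2.26 TPM upon ergosterol and 2.42, 3.5, 1.94 and 0 (as listed) TPM upon *S. indica* lipids, against 2, 6.27 and 4.39 TPM in the solvent control. The groups overlapped, and the log2FC of −1.05 and −0.92 had adjusted *p* of 0.279 and 0.397. Without *S. indica* lipid library 4, in which it was listed at 0, the log2FC for *S. indica* lipids was −0.46, and with 1 library left out it reached −1.27 at the lowest. 2HG0133420.1 was the most abundant of the 5 lowest members, with 13.4, 24.8 and 21.9 TPM upon ergosterol and 29.1, 38.6, 33.8 and 14.8 TPM upon *S. indica* lipids, against 32.2, 29.1 and 55.3 TPM in the solvent control. All ergosterol libraries were below all solvent control libraries, but the log2FC of −0.91 had an adjusted *p* of 0.19.

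7HG0726700.1 and 6HG0592410.1 were likewise lower in all ergosterol libraries. The first had 1.32, 3.03 and 1.92 TPM upon ergosterol and 3.03, 3.57, 5.44 and 1.84 TPM upon *S. indica* lipids, against 3.1, 4.37 and 7.45 TPM in the solvent control (log2FC −0.92, adjusted *p* = 0.168 for ergosterol). The second had 3.22, 2.51 and 2.46 TPM upon ergosterol and 2.7, 2.99, 3.35 and 4.03 TPM upon *S. indica* lipids, against 3.61, 5.79 and 4.97 TPM in the solvent control. Of the 5 lowest members it came nearest to the threshold, with a log2FC of −0.62 and an adjusted *p* of 0.0973 for ergosterol, and of −0.43 and 0.246 for *S. indica* lipids. 4HG0332060.1, close to the abundance limit, was listed at 0 TPM in 2 ergosterol libraries and 1 *S. indica* lipid library, and its highest value was 2.24 TPM in solvent control library 1. Its mean was 0.565 TPM upon ergosterol and 1.1 TPM upon *S. indica* lipids, against 1.54 TPM in the solvent control. It reached the abundance limit with the help of the solvent control libraries, so its low log2FC is partly a result of the selection.

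The 95% interval of the log2FC lay wholly between −1 and 1 in 45 of 66 members for ergosterol and in 47 for *S. indica* lipids, against 85.0% and 88.6% of all transcripts tested. These shares were not matched for abundance. In the remaining members the interval reached beyond −1 or 1. Because 1 is added to each TPM, the log2FC understates the change of rare members, and an interval within these bounds does not limit their change in TPM to a doubling. 5HG0519710.1, at a mean of 1.95 TPM, had a log2FC of 0.43 upon ergosterol for a ratio of mean TPM of 1.56.

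The treatments were also compared with each other, to ask whether the pure sterol and the whole lipid extract acted differently on these receptors. The doses are not matched, since ergosterol was given by concentration and the extract by dilution. None of the 66 members passed both limits in either direction, against 0% of all transcripts tested, and none passed with the adjusted *p* alone, against 0.00546%. The lowest adjusted *p* of a member was 0.863, and at an unadjusted *p* under 0.05 the limma fit had 3 members higher upon ergosterol (1.58% of all transcripts tested) and 3 lower (3.74%). The median log2FC of ergosterol over *S. indica* lipids was −0.02, against −0.03 over all transcripts tested. The 95% interval lay between −1 and 1 in 52 members, or 78.8%, against 91.4% of all transcripts tested, shares not matched for abundance. For 3HG0318390.1 this interval ran from −0.73 to 0.69 and for 7HG0726150.1 from −0.52 to 0.27, so differences between the treatments within these bounds cannot be told from none.

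The members with an unadjusted *p* under 0.05 in this comparison include 2 that rose upon *S. indica* lipids. For 3HG0269130.1 the log2FC of ergosterol over *S. indica* lipids was −0.48 (95% interval −0.82 to −0.14, limma adjusted *p* = 0.863), and for 5HG0518560.1 it was −0.26 (95% interval −0.51 to −0.01, limma adjusted *p* = 0.925). 7HG0743100.1, at 7.08, 6.26 and 7.38 TPM upon ergosterol and 5.78, 5.37, 5 and 4.39 TPM upon *S. indica* lipids, lay on the other side, with a log2FC of 0.37 and an adjusted *p* of 0.907. The remaining members were 1HG0006820.1 (log2FC −0.52, limma adjusted *p* = 0.925), 5HG0519710.1 (0.37, 0.908) and 1HG0028100.1 (1.00, 0.911). The last was listed at 0 TPM in *S. indica* lipid libraries 1 and 4. The calls that were made upon *S. indica* lipids and not upon ergosterol are therefore not shown to differ between the treatments.

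Descriptions named a particular receptor in 1 member. 6HG0571950.1 is described as GSO2, which in Arabidopsis acts with the related GSO1 in the perception of peptides that guide the formation of the Casparian strip in roots and of the embryo's cuticle. It had 3.74, 2.99 and 3.61 TPM upon ergosterol and 2.87, 3.1, 1.7 and 4.22 TPM upon *S. indica* lipids, against 2.68, 4.44 and 3.09 TPM in the solvent control. The groups overlapped fully, with a log2FC of 0.03 (95% interval −0.48 to 0.55, limma adjusted *p* = 0.962) for ergosterol and of −0.17 (95% interval −0.65 to 0.32, limma adjusted *p* = 0.776) for *S. indica* lipids. The 1 transcript described as GSO1 averaged 0.0816 TPM and was not tested. All 9 transcripts described as EFR, in Arabidopsis the receptor of a bacterial elongation factor, were below the limit, with a highest mean of 0.365 TPM.

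The other descriptions are general. The commonest wording, 'receptor-like protein kinase family protein' after the leucine-rich repeat, held 135 of the matching transcripts and 36 members, of which 2 rose with the adjusted *p* alone upon ergosterol and 2 upon *S. indica* lipids, where 2.85% and 3.29% of all transcripts tested did so. Of 9 members called receptor-like protein kinase without 'family', 1 rose upon ergosterol and 2 upon *S. indica* lipids. In the 7 members called protein kinase family protein, with no mention of a receptor, these counts were 0 and 2. The wordings hold too few members to be set apart from each other or from all transcripts tested.

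Members that lie next to each other were compared within each library. The identifiers of 3HG0318390.1 and 3HG0318380.1, both described as LRR receptor-like kinases, differ by 10 in the locus number, the usual step between adjacent loci. 3HG0318380.1 had 29.5, 19.3 and 33.9 TPM upon ergosterol and 24.1, 24.1, 20.8 and 33.6 TPM upon *S. indica* lipids, against 15.1, 28.3 and 15.1 TPM in the solvent control. It did not pass (log2FC 0.50, SE 0.268, limma adjusted *p* = 0.33 for ergosterol, and 0.42, SE 0.251, limma adjusted *p* = 0.472 for *S. indica* lipids). These values moved with single libraries, from 0.34 without ergosterol library 3 to 0.79 without solvent control library 2 for ergosterol, and from 0.27 without solvent control library 1 or 3 to 0.70 without solvent control library 2 for *S. indica* lipids. In each library, 3HG0318390.1 had 1.53, 1.21 and 1.15 times the TPM of its neighbour upon ergosterol and 1.3, 1.32, 1.45 and 1.49 times upon *S. indica* lipids, against 0.586, 0.63 and 0.403 times in the solvent control. The order of the pair was thus reversed between treated and solvent control roots in every library.

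The difference in the log2 ratio of this pair, on the log2(TPM + 1) scale, was 1.20 for ergosterol (exact two-sided permutation *p* = 0.1, the smallest that 3 against 3 libraries allow) and 1.30 for *S. indica* lipids (exact two-sided permutation *p* = 0.0286, the smallest that 4 against 3 allow). Adjusted over the 10 tests of 5 neighbouring pairs, these exact *p* were 0.5 and 0.286. With so few libraries no pair could have passed after this adjustment, even with every test at its smallest *p*. The adjusted values therefore cannot decide whether the ratio of this pair changed. In the other 4 pairs of neighbouring members the ratios overlapped between treated and solvent control libraries in both comparisons. Reads from near-identical copies can be split between transcripts by the quantification, and the sequences needed to see how alike these pairs are were not used here.

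**Figure D4:**
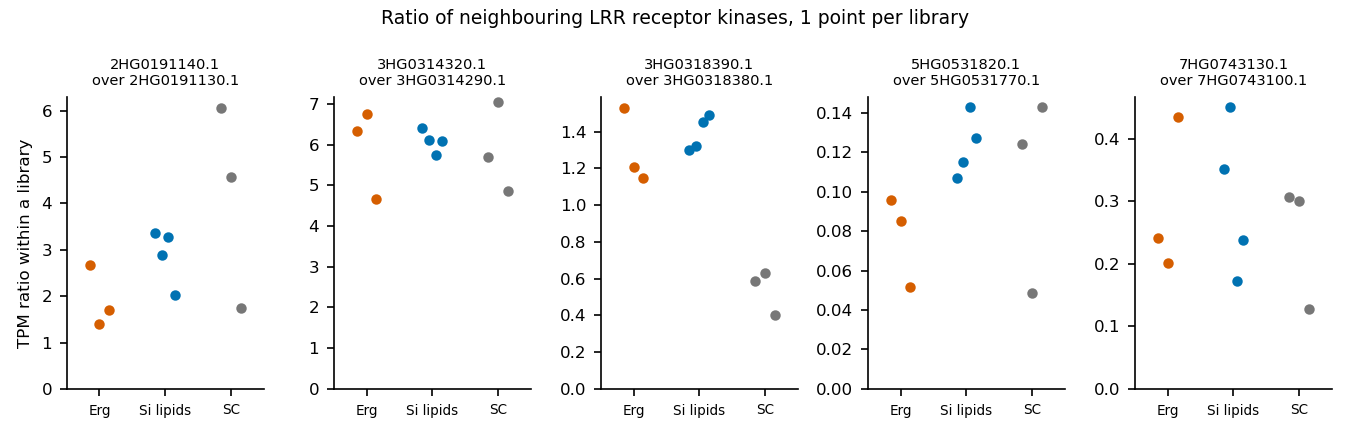
Ratio of TPM within each library (y axis, linear, from 0) for the 5 pairs of LRR receptor kinases with locus numbers at most 50 apart, with ergosterol (Erg, n = 3), *S. indica* lipids (Si lipids, n = 4) and solvent control (SC, n = 3) from left to right. Each point is a library. The pair 3HG0318390.1 over 3HG0318380.1 lies between 1.15 and 1.53 in the treated libraries and between 0.403 and 0.63 in the solvent control, and the other 4 pairs overlap.

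Related groups of transcripts were counted in the same way. The selection by words missed 7 transcripts described either as SHR5, after an LRR receptor kinase of sugarcane, or as a kinase with 'leucine rich' written without a hyphen. Of these, 5 were tested, all described as SHR5-receptor-like kinase. All 5 had a log2FC above 0 in both comparisons, against 36.9% of all transcripts tested upon ergosterol and 41.2% upon *S. indica* lipids. 7HG0639820.1 had 10, 6.93 and 8.96 TPM upon ergosterol and 6.85, 7.74, 4.78 and 6.29 TPM upon *S. indica* lipids, against 1.57, 2.89 and 2.11 TPM in the solvent control. It rose with a log2FC of 1.60 (SE 0.202, limma adjusted *p* = 0.00156) and of 1.22 (SE 0.189, limma adjusted *p* = 0.00436). 3HG0309730.1 had 26.3, 18.7 and 24 TPM upon ergosterol and 20.1, 21.5, 16 and 25.4 TPM upon *S. indica* lipids, against 8.08, 11.2 and 8.89 TPM in the solvent control, a log2FC of 1.21 (limma adjusted *p* = 0.00431) and of 1.06 (limma adjusted *p* = 0.00508). Its log2FC for *S. indica* lipids was under the limit without *S. indica* lipid library 4 (0.96) or solvent control library 1 (0.97). Another of them, 2HG0190260.1, rose by a log2FC of 0.56 (limma adjusted *p* = 0.0466) and 0.54 (limma adjusted *p* = 0.036), calls that held in 3 and 2 of the 10 fits with 1 library left out.

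Other receptor kinases, those described as wall-associated, lectin, cysteine-rich or LysM kinases, had 55 of 138 transcripts tested. Past both limits 3 rose upon ergosterol (1.16% of all transcripts tested) and 3 upon *S. indica* lipids (1.17%). With the adjusted *p* alone 7 rose upon ergosterol (2.85%), and 8 rose (3.29%) and 1 fell (0.584%) upon *S. indica* lipids. Their median log2FC of 0.15 and 0.16 was close to that of the LRR receptor kinases. LRR proteins without a kinase word, largely F-box proteins and general LRR family proteins, had medians of −0.14 and −0.08 over 44 tested transcripts. Among these, limma called 0 higher (2.85% of all transcripts tested) and 1 lower (0.458%) upon ergosterol with the adjusted *p* alone, and at an unadjusted *p* under 0.05 1 was higher (7.87%) and 8 were lower (11.8%).

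Signalling peptides, of which only some are ligands of LRR receptor kinases, were also looked up by their descriptions. Of 54 transcripts described as phytosulfokine, CLE, rapid alkalinization or similar peptides, 25 were tested, none passed in either comparison (limma unadjusted *p* under 0.05 in 1 upon ergosterol and 0 upon *S. indica* lipids), and the median log2FC was −0.02 for ergosterol and −0.03 for *S. indica* lipids. The search for co-receptors and receptor-proximal cytoplasmic kinases found 4 transcripts, of which 1 was tested, a somatic embryogenesis related protein. Its log2FC was −0.12 upon ergosterol (limma unadjusted *p* = 0.28, adjusted *p* = 0.571). Upon *S. indica* lipids it was −0.25 (limma unadjusted *p* = 0.0284, adjusted *p* = 0.249). With 1 transcript tested, the co-receptors of this family could not be followed by name in the annotation.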

How the data were processed

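Total RNA of barley root pieces was sequenced as poly-A libraries. Per the study's methods, the authors trimmed reads with Trimmomatic 0.39 and pseudoaligned them to MorexV3 cDNA using kallisto 0.46.1. TPM per library are the deposited values used here. The deposited table also holds the authors' log2 fold changes and sleuth q-values (4 columns), which were not read. The methods plan 4 replicates for every treatment, and 3 ergosterol, 3 solvent control and 4 *S. indica* lipid libraries were analysed here. The table has 43382 lines, of which 5420 repeat a transcript with the same TPM, and each transcript was kept once.

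All transcripts averaging 1 TPM or more were analysed as log2(TPM + 1) in a single limma 3.58.1 model (R 4.3.3) of 10 libraries with a variance trend, and *p* values were adjusted by Benjamini-Hochberg per comparison. The model was tested on simulated data. A change required an adjusted *p* of at most 0.05 and an absolute log2FC of at least 1, with the adjusted *p* alone as a second rule. Python 3.11.15 served for all else.

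Members and gene lists were chosen with earlier results of these data known. Named were the members past both limits, the 5 most abundant, the 5 lowest by average log2FC, those with a named receptor, those next to the abundance limit, and members within 50 locus numbers of a called one. Members past the adjusted *p* alone, those with large but uncertain changes, those with an unadjusted *p* under 0.05 between the treatments, and the SHR5 transcripts were named outside this rule, after their values had been seen. Alternatives were pseudocounts of 0.1 and 0.5, no abundance filter, a minimum of 5 TPM, median-ratio scaling, fits of 2 groups, no variance trend, a replicate block, sums per locus and each library left out. No gene positions or sequences are given, as the available gene table matched 0 of the identifiers.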

Additional observations from a re-analysis of the deposited data

Results flagged for a closer look

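In 3HG0318390.1 the highest *S. indica* lipid library, library 4, stood apart from the other 3, with 50 TPM against 31.3, 31.9 and 30.2 TPM, a gap of 0.912 of the group's range that is above Dixon's 95% critical value for 4 libraries. Of 19 named members this was the only group of *S. indica* lipid libraries that met this limit, which chance exceeds in about 1 of 20 groups. Without this library the transcript still passed both limits upon *S. indica* lipids. Among the fits with 1 library left out, that call was lost only without solvent control library 1 or 3.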

How the results depend on the processing

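Upon ergosterol, the number of members past both limits was 2, and became 4 with the adjusted *p* alone, 1 without an abundance filter and 1 in a fit of only the 2 groups. Upon *S. indica* lipids it was 2, and became 7 with the adjusted *p* alone. With the adjusted *p* alone, the ergosterol count of 4 became 2 without an abundance filter, 7 with median-ratio scaling and 2 in a fit of only the 2 groups. With 1 library left out, the counts past both limits ranged from 1 to 2 for ergosterol, from 1 to 3 for *S. indica* lipids and from 0 to 0 between the treatments. With the adjusted *p* alone they ranged from 1 to 5 for ergosterol, from 1 to 8 for *S. indica* lipids and from 0 to 0 between the treatments. The cause of these shifts was not tested. For the alternative fits, and for the replicate block described below, the share of all transcripts called is not given. A shift of the family therefore cannot be told from a shift of all transcripts tested. For 3HG0318390.1 upon ergosterol the adjusted *p* was 0.0693 without an abundance filter and 0.063 in a fit of only the 2 groups. The sign of the log2FC turned with a library left out in 2 of the 19 named members examined in this way, neither of which was called: 3HG0295830.1 (−0.03 to 0.10 for ergosterol, 0.00 to 0.11 for *S. indica* lipids) and 6HG0571950.1 (−0.09 to 0.19 and −0.31 to 0.01).

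The labels give the groups shared replicate numbers, but deviations of same-numbered libraries correlated between −0.188 and 0.196, so the numbers were not taken to pair the libraries. With the replicate number as a block, 2 members passed both limits upon ergosterol and 2 upon *S. indica* lipids, and 0 between the treatments, while with the adjusted *p* alone the counts were 3 and 4. With this block the adjusted *p* of 3HG0318390.1 upon *S. indica* lipids was 0.0757 (log2FC 1.55). The members counted upon *S. indica* lipids with the block therefore include a member that was not called without it and is not named here. The adjusted *p* was also over 0.05 upon *S. indica* lipids for 6HG0561150.1 (0.0797), 7HG0737850.1 (0.0679) and 1HG0064340.1 (0.072), and upon ergosterol for 7HG0737850.1 (0.056). Among the SHR5 transcripts, 2HG0190260.1 had adjusted *p* of 0.0505 upon ergosterol and 0.119 upon *S. indica* lipids with this block, and 3HG0309730.1 a log2FC of 0.96 upon *S. indica* lipids. Depth is unknown, so precision rests on 3 or 4 libraries a group.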
